A study of Mus musculus with 4 samples.

Results

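Genes of the mouse major histocompatibility complex (MHC, called H2 in the mouse) and of peptide loading were followed in macrophages lacking a phosphatase subunit. A gene was included when a feature of the array was annotated with a lone symbol beginning with H2-, or with B2m, Tap1, Tap2, Tapbp, Nlrc5 or Ciita, and where a gene had several such features the brightest in the mean of the 4 arrays was taken. This gave 40 genes out of the 22180 with such a feature. They were 1 class I gene (H2-K1), 20 class Ib genes, 11 class II genes, 6 genes of loading and regulation, and 2 other genes of the region (H2-K2 and H2-Ke6). H2-D1, the other classical class I gene of the reference genome, and Cd74, the invariant chain of class II, were sought as well. Neither entered, because the feature that lists each of them carries another symbol too.

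The study compared bone marrow derived macrophages of 2 genotypes with 2 arrays each, and all cells had received 100 ng/ml lipopolysaccharide (LPS) for 2 hours after 6 days of culture in L-cell supernatant. Control cells carried PP2ACα fl/fl alleles, in which exon 1 of the catalytic subunit alpha of protein phosphatase 2A is floxed, and their label names no Cre. Knockout cells carried the same floxed alleles together with lyM-Cre, which deletes that exon in myeloid cells. The labels call the arrays biological replicates but name neither mice, ages nor strain, so p-values measure the spread between these samples only. With no unstimulated arrays, the values describe levels after LPS and not the response to it.

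MHC class I molecules display peptides from the cytosol to CD8 T cells. Their heavy chain needs beta-2 microglobulin (B2m), peptides pumped into the endoplasmic reticulum by the Tap1 and Tap2 transporter, and the bridging protein tapasin (Tapbp). Class Ib molecules share this fold but vary less between individuals and serve narrower roles, several of them as ligands of natural killer cell receptors or of unconventional T cells. Class II molecules display peptides from endosomes to CD4 T cells, with H2-DM editing the peptide and H2-O restraining H2-DM. Nlrc5 switches on class I genes and Ciita class II genes, through shared X and Y box elements in their promoters, and class I genes are in addition inducible by interferons.

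The promoters of 4 class I and class Ib genes that rose in knockout cells are shown first, with that of the class II gene H2-Aa for contrast, because the 4 share a run of letters that H2-Aa lacks. Sequences come from RefSeq for the build GRCm38.p6, read 5′ to 3′ on the strand of the gene; each is a stretch of 190 bases that ends at the last base before the annotated start. Capitals mark GTTTCACTTCT, the longest run common to the 4, which lies in the interferon consensus sequence of class I genes; GGGNNTTCC, a match to NF-kB sites; TGACG, part of the X2 box; and CCAAT, the Y box, each on either strand.
H2-K1, chr17:34000348-34000537, minus strand: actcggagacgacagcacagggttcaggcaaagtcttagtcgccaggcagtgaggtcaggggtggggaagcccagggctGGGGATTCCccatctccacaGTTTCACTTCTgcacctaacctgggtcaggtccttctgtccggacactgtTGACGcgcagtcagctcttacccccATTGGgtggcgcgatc
H2-Q4, chr17:35379427-35379616, plus strand: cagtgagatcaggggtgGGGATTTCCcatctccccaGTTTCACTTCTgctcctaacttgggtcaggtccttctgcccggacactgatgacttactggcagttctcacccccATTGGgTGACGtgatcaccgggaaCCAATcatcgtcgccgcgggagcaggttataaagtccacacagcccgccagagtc
H2-Q10, chr17:35469899-35470088, plus strand: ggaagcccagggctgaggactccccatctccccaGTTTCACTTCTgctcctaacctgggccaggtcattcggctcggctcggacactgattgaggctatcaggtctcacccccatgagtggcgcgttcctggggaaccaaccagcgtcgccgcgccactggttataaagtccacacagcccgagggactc
H2-M3, chr17:37270044-37270233, plus strand: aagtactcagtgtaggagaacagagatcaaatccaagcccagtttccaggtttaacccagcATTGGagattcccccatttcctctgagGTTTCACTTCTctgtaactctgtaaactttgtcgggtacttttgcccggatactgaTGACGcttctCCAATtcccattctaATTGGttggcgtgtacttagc
H2-Aa, chr17:34287824-34288013, minus strand: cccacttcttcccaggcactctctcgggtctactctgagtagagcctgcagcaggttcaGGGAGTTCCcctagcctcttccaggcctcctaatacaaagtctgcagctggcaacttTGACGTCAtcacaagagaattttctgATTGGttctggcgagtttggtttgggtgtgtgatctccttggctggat

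RefSeq windows of 300 bases, from 250 before to 50 after the start, were found for 28 of the 40 genes, and motifs were searched on both strands in these. GTTTCACTTCT lay at 91 bases before the annotated start in H2-K1, 154 in H2-Q4, 156 in H2-Q10 and 102 in H2-M3. The run was taken from these 4, which are the class I and class Ib genes with a window that passed the test described next, so its presence in them is fixed by that choice. The distances depend on where the start is annotated: the stretch tataaagtccac lies after it in H2-K1 and before it in H2-Q4 and H2-Q10. Elsewhere in the set no exact match to the run was found: 0 of the 8 class II windows held it, and 0 of the 12 windows of tested genes that did not pass. Near matches were not counted. The window of H2-M2, which did not pass, holds gtttcccttct, which differs from the run in 1 letter. Tap1, which did pass, has a window without it, so 4 of 5 windows of genes that passed held it. H2-T24, H2-Q5, Tap2 and Nlrc5 passed as well but had no window, so the run could not be sought in them. Over 27025 promoters of that length 18 held it (0.0666%), and 7 of the 18 belonged to genes named H2-. These 7 include the 4 that the run was taken from, so that count is partly fixed by the choice too. The others were H2-D1, H2-Q6 and H2-Q7. Over the whole window H2-Q4 was identical to H2-Q10 at 77.0% of bases and to H2-K1 at 68.3%, while H2-M3 was less alike, at 57.0% with H2-K1, 50.7% with H2-Q10 and 49.0% with H2-Q4. H2-Q4 was more alike to H2-M5 and H2-M2, at 57.7% each, than to H2-M3, though neither H2-M5 nor H2-M2 holds an exact match to the run. A match is a description of letters, not a site. A core of interferon-stimulated response elements, GAAA followed after any 2 bases by GAAA, was in 2 of the 28, B2m and H2-T23, and in 3.49% of all promoters. CCAAT was in 25 of the 28 (37.9% of all promoters), with 13 of 15 in class Ib and 7 of 8 in class II. TGACG was in 11 of the 28 (21.0%), with 7 of 15 in class Ib and 1 of 8 in class II, and it overlaps itself as TGACGTCA in H2-Aa. GGGNNTTCC was in 5 of the 28 (5.72%), among them H2-K1, H2-Q4 and H2-Aa.

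Values are log2 units made by the authors with robust multi-array averaging (RMA). The medians of the 4 arrays lay between 3.50 and 3.57, and pairs of arrays correlated across features at 0.986 to 0.990. The targeted gene Ppp2ca was at 8.25 and 7.59 on the control arrays and at 4.36 and 3.39 on the knockout arrays. Genes whose mean reached 3.53, the median over features, were tested with limma, and a gene is said to rise or fall when its Benjamini-Hochberg adjusted p over the 12542 tested genes was under 0.05. Of the 40 genes, 25 were tested. Macrophage markers were bright in both genotypes, with 8 of 9 past the filter level and Cd163 below it; Fcgr1, a high-affinity Fc gamma receptor, rose by 0.94 (limma adjusted p = 0.016).

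The class I gene H2-K1, 5 class Ib genes, both subunits of the peptide transporter and Nlrc5 were higher in knockout macrophages, and no class II gene passed the test. Of the 25 tested genes, 9 rose and 0 fell, or 36.0%, against 3.3% of all tested genes higher and 3.49% lower. The class Ib genes were H2-T24, H2-Q5, H2-Q4, H2-Q10 and H2-M3. Both knockout arrays lay above both control arrays in 14 of the 25 and below them in 2, against 28.8% and 26.5% of all tested genes. Over all 40 these counts were 16 and 5, against 25% and 20.4% of all measured genes. The 1.5-fold cutoff that the series' design text gives was passed upward by 7 of the 25, against 2.59% of all tested genes. The median difference over all 40 genes was 0.12 log2 units, next to 0.02 over all genes. Each array bore on the count: 4 genes passed without control replicate 1, 3 without control replicate 2, and 2 without either knockout replicate 1 or knockout replicate 2. Tested among all 20673 features past the filter, where 0.0726% were called, limma called 0 of these genes, with 11 at an unadjusted p under 0.05. In that fit 2328 of the 12542 tested genes had an unadjusted p under 0.05.

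**Figure D1:**
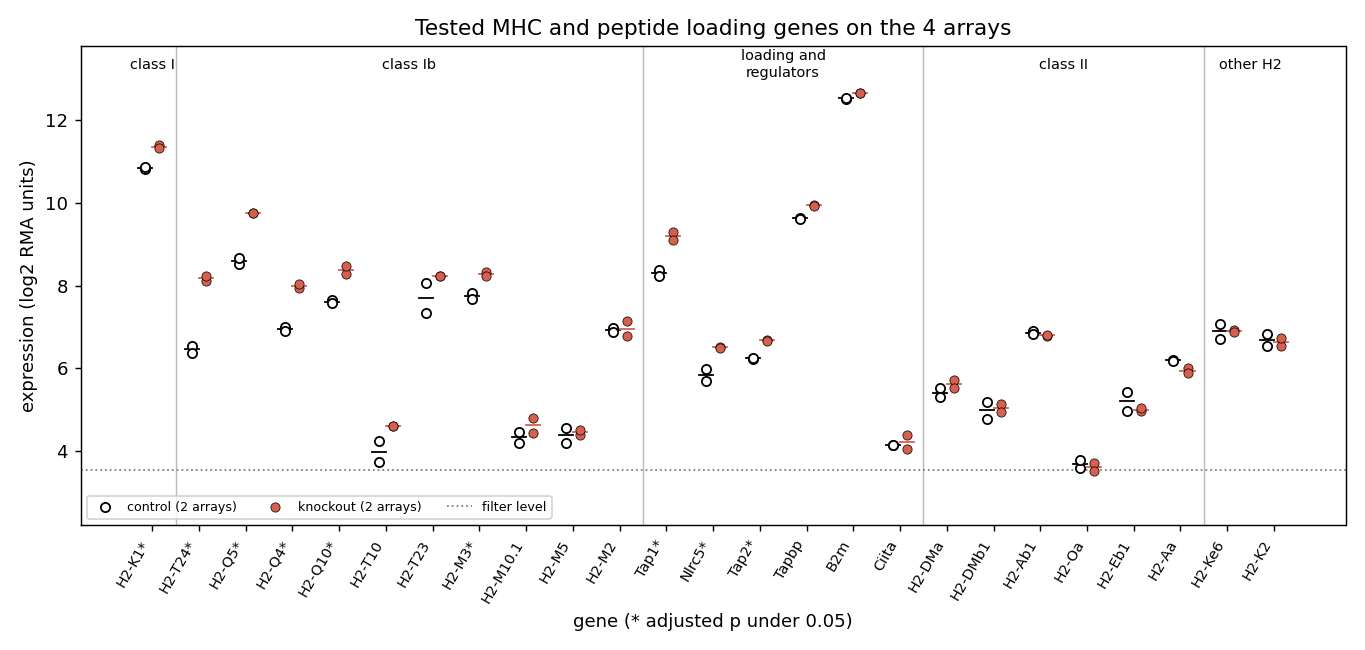
Expression in log2 RMA units (vertical axis) of the 25 tested genes on the 2 control arrays (open circles) and 2 knockout arrays (filled circles), with a bar at each group mean; genes are grouped by class and ordered by difference. The filled circles stand above the open ones for H2-K1, the H2-Q and H2-T genes, H2-M3 and the transporter genes, while in class II they stand above for H2-DMa, below for H2-Aa and H2-Ab1, and overlap for H2-DMb1, H2-Eb1 and H2-Oa.

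H2-K1, the classical class I heavy chain, read 10.83 and 10.86 in control and 11.39 and 11.34 in knockout arrays. The knockout arrays were both higher, and the gap between genotypes was far wider than that between arrays of a genotype, at most 0.06. The difference was 0.52 (SE 0.09, 1.44-fold, limma adjusted p = 0.033, 95% interval 0.31 to 0.74, not adjusted for the number of genes). It stayed between 0.49 and 0.55 with any array left out, but the adjusted p then lay between 0.090 and 0.17. H2-K1 was the only classical class I gene measured on its own.

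Class Ib genes held the largest changes. H2-T24, a class Ib gene of the T region, read 6.54 and 6.37 in control and 8.12 and 8.23 in knockout arrays. The difference of 1.72 (SE 0.10, 3.3-fold, limma adjusted p = 0.0029) was the largest of the 40 and passed with any array left out, where it ran from 1.64 to 1.80. H2-Q5, which RefSeq lists as a transcribed pseudogene, stood at 8.52 and 8.66 against 9.76 on both knockout arrays. It rose by 1.17 (SE 0.09, 2.24-fold, adjusted p = 0.0065), and a dimmer feature of it differed by 0.56, also with the genotypes apart. H2-Q4, of the Qa family, read 6.99 and 6.90 in control and 7.94 and 8.03 in knockout, a rise of 1.04 (SE 0.09, 2.06-fold, adjusted p = 0.0075). A dimmer feature of H2-Q4 differed by 0.33 with overlapping arrays, and with both features averaged the gene differed by 0.68 and did not pass (limma adjusted p = 0.060).

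H2-Q10, best known as a soluble class Ib protein made by the liver, read 7.64 and 7.59 against 8.29 and 8.48. It rose by 0.77 (SE 0.10, adjusted p = 0.019), and a dimmer feature of the same gene went from 5.02 to 5.21. H2-M3, which presents peptides that begin with N-formyl methionine, as bacterial and mitochondrial proteins do, read 7.82 and 7.68 against 8.32 and 8.23. It rose by 0.53 (SE 0.10, adjusted p = 0.041). In all 5 class Ib genes that rose, the 2 genotypes were apart on every array.

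A pair of T region genes had higher values in knockout arrays without passing. H2-T23 encodes Qa-1, the ligand of the CD94 and NKG2 receptors of natural killer cells. It read 8.06 and 7.33 in control, a gap of 0.725, against 8.24 and 8.23 in knockout arrays. The difference was 0.54 (SE 0.23, limma adjusted p = 0.23); without control replicate 1, the higher control array, it was 0.90 and passed, with an adjusted p of 0.048, and without control replicate 2 it was 0.18. H2-T10, a transcribed pseudogene in RefSeq, read 4.23 and 3.73 against 4.61 and 4.60, a difference of 0.63 (adjusted p = 0.095).

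The H2-M genes apart from H2-M3 did not pass the test. H2-M2 read 6.96 and 6.88 in control and 7.13 and 6.77 in knockout, so that the knockout arrays enclosed the control arrays. H2-M5 and H2-M10.1 differed by 0.07 and 0.29 (limma adjusted p = 0.80 and 0.32). Another 8 H2-M genes, among them 5 of the H2-M10 genes known from vomeronasal neurons, read below the filter level on every array, between 2.12 and 3.07, and were not tested. H2-Q1 at 0.24 and H2-Bl at 0.42 had means below the filter and were not tested either; H2-Bl differed between its 2 control arrays by 0.96. Split by family, 4 of 6 tested H2-Q and H2-T genes rose and 1 of 4 tested H2-M genes did. Over all measured members, the median difference was 0.77 for the 7 H2-Q and H2-T genes and 0.05 for the 12 H2-M genes. Probes of these close relatives may read transcripts of each other, so the sizes of single class Ib genes are uncertain.

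**Figure D2:**
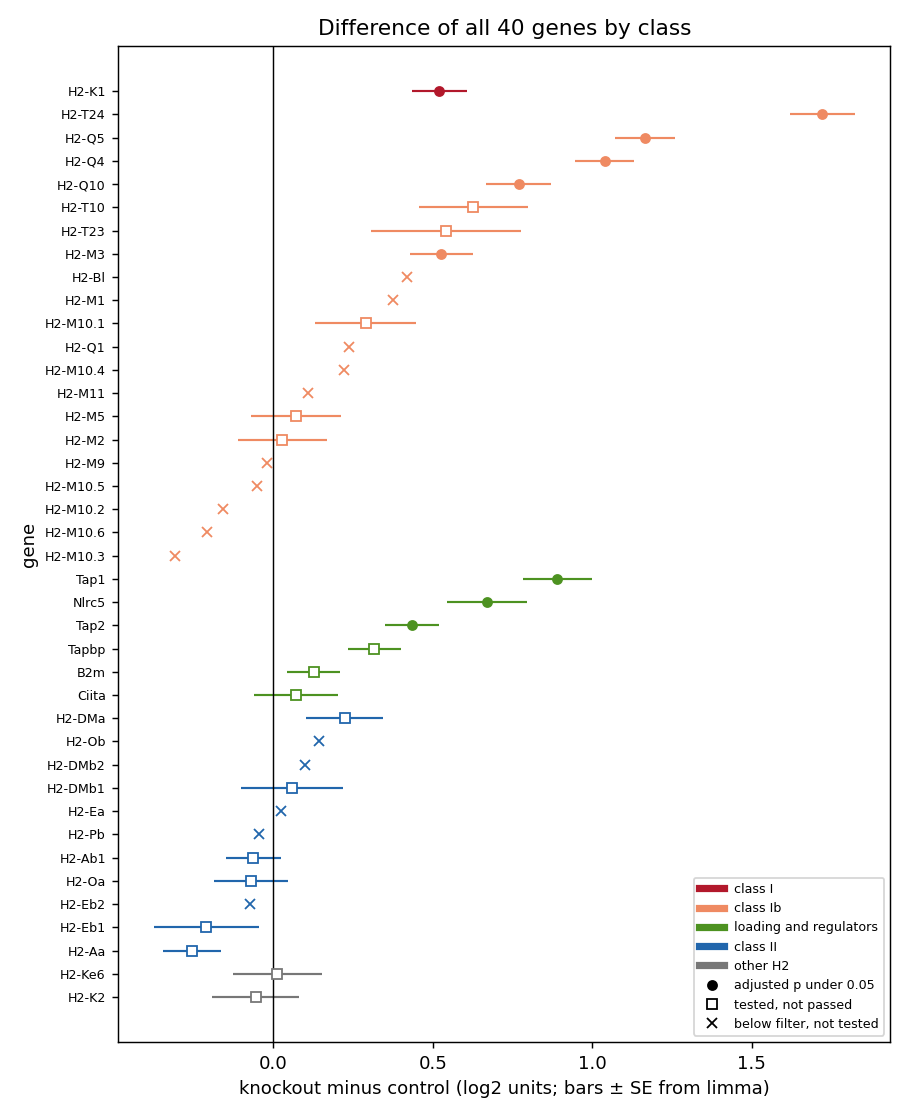
Knockout minus control difference in log2 units (horizontal axis) of all 40 genes, grouped by class; bars are ± SE from limma over 2 arrays per genotype, filled circles passed the test, open squares did not, and crosses are genes below the filter, with no test. H2-T24 lies farthest to the right at 1.72, while all 11 class II genes lie between -0.25 and 0.22.

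Genes of peptide loading rose in part. Tap1 and Tap2 encode the paired subunits of the peptide transporter. Tap1 read 8.37 and 8.23 in control and 9.28 and 9.10 in knockout arrays, a rise of 0.89 (SE 0.11, 1.85-fold, limma adjusted p = 0.015). Tap2 read 6.22 and 6.25 against 6.69 and 6.66, a rise of 0.44 (SE 0.08, 1.35-fold, adjusted p = 0.044). Both knockout arrays were higher for each subunit.

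Tapasin and the light chain moved less. Tapbp read 9.63 and 9.62 against 9.95 and 9.94; the genotypes were apart, yet the difference of 0.32 did not pass (SE 0.08, limma adjusted p = 0.089). A dimmer feature of Tapbp differed by 0.01, with overlapping arrays. B2m, which every class I molecule needs, read 12.52 and 12.54 against 12.65 and 12.66, a difference of 0.13 (adjusted p = 0.41, 95% interval -0.08 to 0.34).

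Of the transactivators, Nlrc5 passed the test and Ciita did not. Nlrc5, the class I transactivator, read 5.98 and 5.68 in control and 6.52 and 6.48 in knockout arrays. It rose by 0.67 (SE 0.12, 1.59-fold, limma adjusted p = 0.040). Ciita, the class II transactivator, read 4.15 on both control arrays and 4.05 and 4.39 on the knockout arrays, which enclosed the control values. Its difference was 0.07 (SE 0.13, adjusted p = 0.78, 95% interval -0.26 to 0.40). Without single arrays the difference of Nlrc5 ran from 0.52 to 0.82 and its adjusted p from 0.056 to 0.18.

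No class II gene passed the test. Of 11, 6 were tested and 0 were called by limma; H2-Aa had an unadjusted p under 0.05. H2-Aa, the alpha chain of the I-A molecule, read 6.21 and 6.17 in control and 5.99 and 5.88 in knockout arrays. Both knockout arrays were lower, and the difference was -0.25 (SE 0.09, adjusted p = 0.17, 95% interval -0.48 to -0.02). H2-Ab1, the beta chain that pairs with it, read 6.89 and 6.82 against 6.78 and 6.81, a difference of -0.06 (adjusted p = 0.71, 95% interval -0.28 to 0.15). H2-Eb1, the beta chain of I-E, read 4.96 and 5.43 against 4.95 and 5.02, a difference of -0.21 (adjusted p = 0.49).

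H2-DMa and H2-DMb1 differed by 0.22 and 0.06 (limma adjusted p = 0.32 and 0.86), and H2-Oa by -0.07 (adjusted p = 0.76). The 95% intervals of the 6 tested genes had upper ends between -0.02 for H2-Aa and 0.53 for H2-DMa, so a rise of the size of H2-Q4 lay outside all 6. A rise of the size of H2-K1 (0.52) lay inside the interval of H2-DMa. That of Tap2 (0.44) lay inside the intervals of H2-DMa and H2-DMb1. H2-DMb2, H2-Ob, H2-Eb2, H2-Ea and H2-Pb read between 2.25 and 3.33, below the filter level on every array. The arrays of the genotypes overlapped in all 5.

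The classes were set side by side by their counts and medians, with no test of the difference between classes. Class I had 1 of 1 genes higher, class Ib 5 of 10, loading and regulation 3 of 6 and class II 0 of 6, next to 3.3% of all tested genes. Over all measured genes of a class, the median difference was 0.52 for class I, 0.26 for class Ib, 0.38 for loading and regulation and -0.05 for class II. For class Ib the median over the 10 tested genes was 0.58. With 2 arrays against 2, an exact permutation test of any single value cannot give a p below 0.333. H2-Ke6, a hydroxysteroid dehydrogenase gene of the same region with no role in presentation, differed by 0.01, and H2-K2, a transcribed pseudogene, by -0.05.

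**Figure D3:**
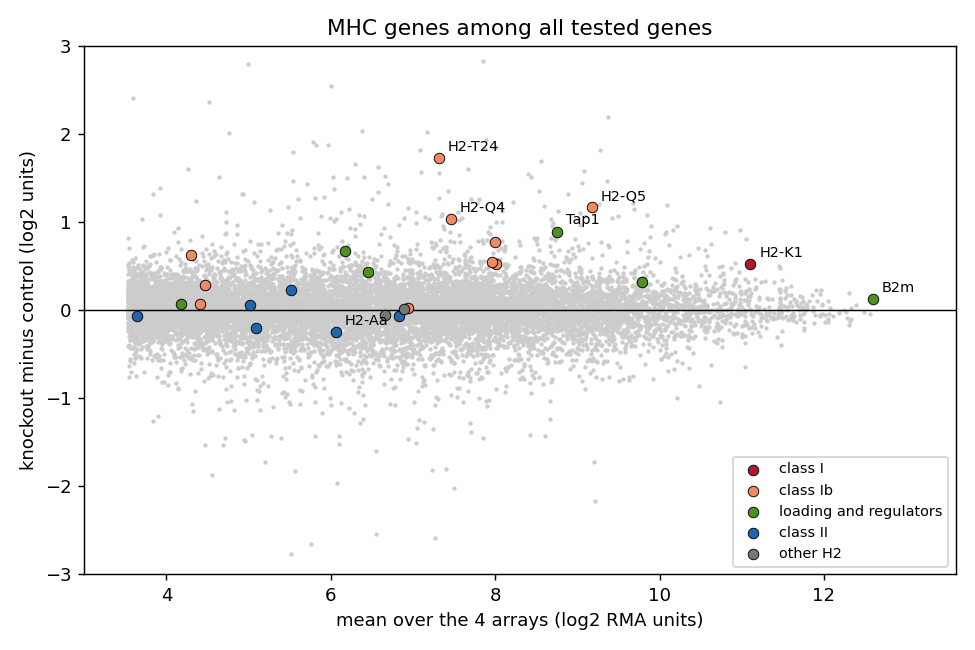
Knockout minus control difference (vertical axis, log2 units) against the mean over the 4 arrays (horizontal axis, log2 units) for all 12542 tested genes in grey and the 25 tested MHC and loading genes in colour by class; 2 grey genes beyond ±3 are not drawn. H2-T24, H2-Q5, H2-Q4 and Tap1 stand above most grey genes of a like mean, and the class II genes lie within the grey cloud.

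The transporter genes lie within the class II region of chromosome 17. In the gene order of the RefSeq table, Psmb9, Tap1, Psmb8 and Tap2 lie next to each other, between the class II genes H2-DMb1 and H2-Ob. Psmb9, an immunoproteasome subunit that cuts peptides for class I, read 6.73 and 6.62 in control and 7.48 and 7.37 in knockout arrays, a rise of 0.75 (SE 0.10, limma adjusted p = 0.017). Psmb8, between Tap1 and Tap2, differed by 0.20 (adjusted p = 0.30). On either side, H2-DMb1 differed by 0.06 and H2-Ob, below the filter, by 0.14.

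**Figure D4:**
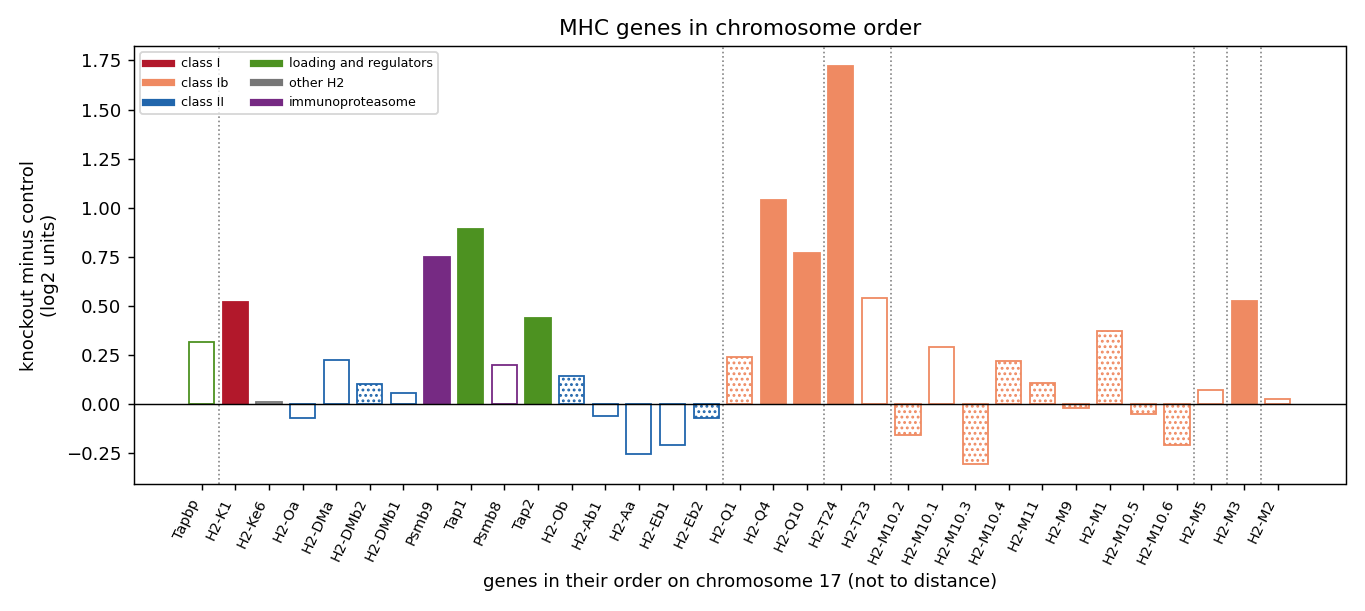
Knockout minus control difference in log2 units (vertical axis) of 33 genes, with Psmb8 and Psmb9 among them, in their order along chromosome 17 (horizontal axis, not to distance; dotted lines mark gaps of 5 or more protein-coding genes); filled bars passed the test, open bars did not, and dotted bars are genes below the filter. Only genes that RefSeq lists as protein-coding are drawn, so pseudogenes such as H2-Q5 are absent. Psmb9, Tap1 and Tap2 rise from a run of class II genes near 0, and the tallest bars are those of H2-T24 and H2-Q4.

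Features annotated with several symbols were left unassigned but were read as features. Of 6 that list H2- symbols alone, all 6 had both knockout arrays above both control arrays, against 23.7% of all features, and 5 passed the filter. The 6 are not separate readings: features 17337120 and 17337133 both list H2-Q7, H2-Q8 and H2-Q9, and feature 17337122 lists H2-Q6 and H2-Q8. Feature 17337122 read 7.06 and 7.22 in control and 9.65 and 9.44 in knockout arrays, a difference of 2.40 (SE 0.13), larger than that of any of the 40 genes. Its limma adjusted p over the 20673 features was 0.049, and it was the one of the 6 that passed there. Feature 17344593 went from 7.62 to 8.45, feature 17337133 from 6.79 to 7.55, and feature 17337120 from 10.85 to 11.35. A dimmer one, feature 17337065, lists H2-Q2 and H2-D1 and went from 4.78 to 4.99. How much of its signal came from H2-D1 cannot be told. Feature 17350982, which lists Cd74 and a microRNA, read 8.07 and 8.03 against 8.23 and 8.28, a difference of 0.20 (adjusted p over features = 0.37).

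Partners of these genes outside the H2 set were read next to all 12542 tested genes. Of those, 6.79% passed the test in either direction, and 3099 had an unadjusted limma p under 0.05. Among 12 tested partners of class I assembly, which include the chaperones calreticulin (Calr) and calnexin (Canx) and proteasome genes, Psmb9 rose and 0 fell, with 2 at an unadjusted p under 0.05 and a median of -0.02. Calr differed by -0.09 and the trimming peptidase Erap1 by 0.07 (limma adjusted p = 0.67 and 0.68). Of 10 tested partners of class II, which include cathepsins and the thiol reductase Ifi30, 0 were called, by limma (1 at an unadjusted p under 0.05), with a median of -0.03; cathepsin S (Ctss), which cuts the invariant chain, differed by 0.07 (adjusted p = 0.68).

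Of 15 tested transcription factors that act on MHC promoters, 0 were called by limma, 7 had an unadjusted p under 0.05, and the median was 0.15. Over all 12542 tested genes, 3099 had an unadjusted p under 0.05 by limma, and the median was 0.01. The regulatory factor X genes Rfx5 and Rfxank, whose products bind the X box, differed by 0.28 and 0.43 (limma adjusted p = 0.15 and 0.071). Irf1, an interferon regulatory factor that induces class I genes and Tap1, had a control mean of 9.99 ± 0.01 (SD, n = 2) and a knockout mean of 9.604 ± 0.002 (SD, n = 2). The knockout arrays were both lower, but the difference of -0.39 did not pass (SE 0.08, adjusted p = 0.057 from limma).

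Of 7 tested MHC-like genes elsewhere in the genome, 1 rose and 1 fell, next to 3.3% and 3.49% of all tested genes. Mr1, which presents vitamin B metabolites to mucosal-associated invariant T cells, rose by 0.59 (SE 0.11, limma adjusted p = 0.043). H60b, a ligand of the activating receptor NKG2D, read 6.91 and 6.85 against 6.06 and 5.77 and fell by 0.97 (SE 0.12, adjusted p = 0.017). Hfe, the hemochromatosis protein, and Procr, the protein C receptor, differed by 0.53 and -0.52 without passing (adjusted p = 0.056 and 0.051). Cd1d1, which presents lipids, differed by -0.08.

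Markers of other cells that carry MHC molecules were read beside these genes. Over all 12542 tested genes, 3.3% rose and 3.49% fell, and 3099 had an unadjusted limma p under 0.05. In bulk arrays, fewer cells of a type and less RNA per cell cannot be told apart. Of 7 tested monocyte markers 3 rose and 1 fell: Ms4a4c by 1.50, Ccr2 by 0.83 and Ly6c2 by 0.76 against F13a1, which fell by 0.79. The summed linear level of the list ran from 1229 to 1344 in control and from 1266 to 1336 in knockout arrays. F13a1 made up most of that sum in control arrays; without it, a choice made after the values were seen, the sum ran from 437 to 475 in control and from 802 to 836 in knockout arrays. The part of these markers in the rise of class I was not tested. Of 4 tested dendritic cell markers Itgax fell by 2.54 and 0 rose; 6 others, among them Zbtb46, Xcr1 and Siglech, had means below the filter. The summed level of that list ran from 412 to 447 in control and from 241 to 263 in knockout arrays. Itgax alone carried that difference: without it, again chosen with the values seen, the sum ran from 194 to 213 in control and from 200.01 to 226 in knockout arrays. The part of these markers in the class II values was not tested. Of 6 measured B cell markers 2 were past the filter and 0 were called by limma (0 at an unadjusted p under 0.05), and Cd79a, Ms4a1, Pax5 and Fcer2a were below it in the mean. Of the tested markers of T and NK cells (2), neutrophils (4) and fibroblasts (4), 0 were called, with 1, 1 and 0 at an unadjusted p under 0.05.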

How the data were processed

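RNA of 4 samples was measured on 1-colour Affymetrix whole-transcript arrays from 400 ng of total RNA, per the labels' protocols. The deposited table holds log2 values of 41345 features that the authors made by RMA, with background adjustment and normalization, per the series' design text; the submitters' processing notes name oligo and RMA without versions. Normalization between arrays removes a change of total RNA per cell. The number of arrays limits the precision.

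GEO's platform annotation gave the gene names (23521 features with 1 symbol, 1814 with several, 16010 with none), and 39 of the 40 genes matched RefSeq gene IDs of GRCm38.p6. Knockout was compared with control in limma 3.58.1 under R 4.3.3 (lmFit, eBayes with a constant prior, no block, two-sided, Benjamini-Hochberg over 12542 genes). Residual degrees of freedom were 2 and prior ones 3.51. The fit was also run on data simulated from its own variance model, which cannot show whether the calls hold for these arrays. Figures used matplotlib 3.10.9. The members, lists and motifs were chosen with earlier results of these data known. The naming rule gave values for every gene of class I, class II, loading and regulation, the class Ib genes that passed or were among the 6 brightest, list genes that passed, and, in any case, Irf1, Psmb8, Psmb9, Erap1, Calr, Rfx5 and Ctss; 1 gene of this rule is not reported here; any further gene was picked for naming with its values in view. Alternatives covered the filter, variance model, block, normalization, choice of feature, fold cutoff and each array left out; testing all features was chosen after seeing the data.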

Additional observations from a re-analysis of the deposited data

How the results depend on the processing

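No called gene turned direction under the alternatives. The count of 9 genes became 5 with no filter, 4 with the replicate block (H2-T24, H2-Q5, H2-Q4 and Tap1), and 2 to 4 with an array left out. It was 7 after median centring, where H2-M3 (limma adjusted p = 0.056) and Tap2 (0.058) lost their calls, and 8 with features averaged, where H2-Q4 did. By class, class Ib gave 3 with the block and 2 to 4 with an array left out, loading and regulation gave 1 with no filter, 1 with the block and 0 with any array left out, and class I gave 0 in each of these cases and at the 1.5-fold cutoff. limma without variance pooling, and limma over all features, called 0 of these genes, in each class too, with 11 at an unadjusted p under 0.05 in both cases. Over all genes, 852 calls became 333 with no filter, 1354 with a stricter filter, 1584 with a variance trend, 312 with the block, 0 without pooling (2295 unadjusted), 15 over features and 96 to 174 with an array left out. The causes of these changes in count were not tested. Deviations of same-numbered arrays from their group means correlated at r = -0.04 over 12542 genes. With 2 arrays per genotype, this value cannot tell whether same-numbered samples were prepared together, and the labels do not say.

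The class I median of 0.52 was 0.48 after median centring. The class Ib median of 0.26 was 0.58 over tested genes and 0.17 to 0.38 with an array left out. The loading median of 0.38 was 0.34 after centring and 0.30 with features averaged. The stricter filter and the variance trend also called Tapbp. Dim genes near background stay undecided.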
